A study of Mus musculus with 25 samples.

Results

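The neutrophil primary granule genes described here are 10 genes of azurophil granules and promyelocytes among the 23116 genes for which expression was listed: *Mpo*, *Elane*, *Prtn3*, *Ctsg*, *Ms4a3*, *Fcnb*, *Ctsc*, *Srgn*, *Calr* and *Nkg7*. They were chosen by name, with their FPKM in each library known, so their differences between genotypes are given as a description, without a test. Primary granules are the first granules that a developing neutrophil makes, at the promyelocyte stage. They hold myeloperoxidase and serine proteases that kill ingested microbes, which are folded in the endoplasmic reticulum, trimmed to their active form and packed onto a proteoglycan matrix. Secondary and tertiary granules form later, when transcription of the primary granule genes is largely over, and low transcription of single myeloid genes in stem and progenitor cells is known as lineage priming.

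RNA-seq was performed on HSLAM cells (LSK+ CD150+ CD48−), a population enriched for hematopoietic stem cells (HSCs), sorted from adult bone marrow. All mice were C57BL/6 littermates of 8 to 12 weeks that carried loxP sites around exon 1 of both *Znf143* alleles and were given tamoxifen at the study's middle dosage over 10 days. The 3 *Znf143 f/f* mice lacked Cre (*Znf143 f/f* x *Rosa26ERT2-Cre-*) and the 3 *Znf143 −/−* mice carried a tamoxifen-inducible Cre at the ubiquitously expressed *Rosa26* locus (*Znf143 f/f* x *Rosa26ERT2-Cre+*). Thus both genotypes saw the drug and only the deleted mice had Cre, in all tissues and not in HSCs alone, and effects of Cre itself and of the deletion cannot be told apart.

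The 6 libraries held 38643255 to 57895793 fragments on genes. FPKM are fragments per kilobase of gene, scaled to the fragments of the library, except that those of the third *Znf143 −/−* library were computed with the total of the second and are 1.2 times what its own fragments give. The median log2 difference (*Znf143 −/−* minus *Znf143 f/f*) of the 19296 genes tested (mean over the libraries not under 0.1 FPKM) was 0.11 with the FPKM as deposited. It was 0.0067 once libraries were rescaled by size factors (median of ratios), and values of the granule genes are to be read against it. *Zfp143*, the mouse gene for ZNF143, was at 3.06, 4.03 and 3.63 FPKM in the *Znf143 f/f* and at 0.145, 0.303 and 0.326 FPKM in the *Znf143 −/−* libraries. The labels name the deleted genotype CTCF KO, whereas *Ctcf* had a mean of 29.9 ± 0.275 FPKM in *Znf143 f/f* and 29.7 ± 2.27 FPKM in *Znf143 −/−* cells (SD, n = 3). All 17 HSC markers listed passed the filter, among them *Procr*, *Mecom* and *Hlf*. The second *Znf143 f/f* library stood apart in *Car1*, an erythroid gene, with 129 FPKM against 15.0 and 21.7 in the other two, and the first *Znf143 −/−* library had fewer fragments of several granule and basophil genes than the other two, so both are named wherever a value rests on them.

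The 250 bases before the RefSeq start of 4 genes are printed here (GRCm38.p6, each on the strand of its gene), since *Elane* and *Ctsg* had the largest differences of the members, *Prtn3* is the neighbour of *Elane* with almost no difference, and *Mpo* encodes the most typical protein of these granules. Capitals mark letters that were searched on both strands for factors of myeloid transcription, namely GAGGAAG for PU.1, CAACNG and TAACNG for MYB, TGTGGT for RUNX factors, TTGCNNAA for C/EBP factors, TATAA for a TATA box and ACTACA for ZNF143. No 2 matches overlapped in these 4 windows, which lie at chr10:79886062-79886311 (plus strand, *Elane*), chr10:79879417-79879666 (plus strand, *Prtn3*), chr14:56102575-56102824 (minus strand, *Ctsg*) and chr11:87793534-87793783 (plus strand, *Mpo*). The RefSeq starts of *Elane*, *Prtn3* and *Mpo* lie downstream of their GENCODE gene starts. Hence the *Prtn3* window lies inside the GENCODE span (79874476 to 79883174), and the *Elane* and *Mpo* windows run past the GENCODE starts (79886247 and 87793581).
Elane: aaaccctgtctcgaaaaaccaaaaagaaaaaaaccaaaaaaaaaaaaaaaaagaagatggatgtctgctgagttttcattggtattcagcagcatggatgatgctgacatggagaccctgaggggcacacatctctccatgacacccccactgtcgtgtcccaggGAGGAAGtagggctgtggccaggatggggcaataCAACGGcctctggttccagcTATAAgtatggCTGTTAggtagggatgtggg
Prtn3: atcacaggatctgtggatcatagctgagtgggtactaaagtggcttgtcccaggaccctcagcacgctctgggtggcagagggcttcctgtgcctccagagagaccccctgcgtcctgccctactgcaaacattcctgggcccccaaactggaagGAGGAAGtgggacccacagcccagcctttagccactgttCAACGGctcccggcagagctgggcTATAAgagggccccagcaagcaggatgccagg
Ctsg: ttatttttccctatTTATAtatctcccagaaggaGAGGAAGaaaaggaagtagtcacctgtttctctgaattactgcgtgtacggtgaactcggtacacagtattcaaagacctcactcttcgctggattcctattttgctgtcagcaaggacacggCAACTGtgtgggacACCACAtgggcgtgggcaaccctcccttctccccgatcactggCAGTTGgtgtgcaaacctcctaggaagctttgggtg
Mpo: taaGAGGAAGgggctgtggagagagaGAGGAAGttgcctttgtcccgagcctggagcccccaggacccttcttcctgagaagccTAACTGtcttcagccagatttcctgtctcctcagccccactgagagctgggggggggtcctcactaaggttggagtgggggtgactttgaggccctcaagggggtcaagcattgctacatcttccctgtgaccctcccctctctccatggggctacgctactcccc

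The windows of *Elane* and *Prtn3* held 3 kinds of letters in the same order. In *Elane*, GAGGAAG ended 79 bases, CAACGG 46 bases and TATAA 27 bases before the start. In *Prtn3*, the same letters ended 89, 51 and 28 bases before the start. *Elane* differed in holding CTGTTA, the reverse complement of TAACNG, between TATAA and the start. Thus this neighbouring pair, whose levels in HSLAM cells were far apart, matched the same letters in this stretch.

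*Ctsg* held GAGGAAG far upstream, CAACNG on each strand, ACCACA, the reverse complement of TGTGGT, and TTATA, the reverse complement of TATAA, at the far end. *Mpo* held GAGGAAG on 2 occasions and TAACTG, without TATAA. Of the 10 members, all of which matched a window, 5 held GAGGAAG (*Mpo*, *Elane*, *Prtn3*, *Ctsg* and *Ctsc*), against 10.6% of all 32851 windows of this length. CAACNG was in 6 members and in 29.3% of all windows, TAACNG in 2 members and 19.8%, TATAA in 5 members and 22.8%, and TGTGGT in 3 members and 14% of all windows. TTGCNNAA was in *Fcnb* alone (9.56% of all windows) and ACTACA in none of the members (8.92% of all windows). A match is a description of letters, and its absence says only that the letters are not in this window.

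The serine proteases of the primary granule, which cleave proteins of bacteria and of tissue matrix, were at very different levels in HSLAM cells. *Elane* encodes neutrophil elastase, whose mutations cause congenital and cyclic neutropenia. It was at 0.448, 0.0752 and 0.80 FPKM in the *Znf143 f/f* libraries (17, 4 and 35 fragments) and at 2.73, 11.1 and 11.8 FPKM in the *Znf143 −/−* libraries (128, 528 and 563 fragments). Every *Znf143 −/−* library was above every *Znf143 f/f* library, and within each genotype 1 library was low, the second *Znf143 f/f* and the first *Znf143 −/−* library. The mean was 0.441 ± 0.362 FPKM in *Znf143 f/f* and 8.55 ± 5.05 FPKM in *Znf143 −/−* cells (SD, n = 3), a ratio of 19.4, and the log2 difference on the FPKM + 0.1 scale was 4.03 ± 0.68 (SE). It was 3.36 without the second *Znf143 f/f* and 4.71 without the first *Znf143 −/−* library.

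*Ctsg* encodes cathepsin G, a protease of neutrophils and monocytes that lies on chromosome 14 beside the genes of mast cell proteases and granzymes. It was at 0.10, 0 and 0.283 FPKM in the *Znf143 f/f* libraries (4, 0 and 13 fragments) and at 1.65, 3.88 and 4.30 FPKM in the *Znf143 −/−* libraries (81, 194 and 215 fragments). The groups did not overlap, and the same 2 libraries as for *Elane* were the lowest of their genotype. The 0 fragments of the second *Znf143 f/f* library allow a level of up to 0.0537 FPKM, counting 3 fragments as the limit and counting error only. The ratio of the means was 25.6 and the log2 difference 3.99 ± 0.52 (SE), and since it sets 490 fragments against 17, its size depends on the pseudocount.

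*Prtn3* encodes proteinase 3, the autoantigen of granulomatosis with polyangiitis. Unlike its neighbour, it was a highly expressed gene of HSLAM cells, with 225, 110 and 210 FPKM in the *Znf143 f/f* and 259, 142 and 191 FPKM in the *Znf143 −/−* libraries. The genotypes overlapped, and the second library of each was the lowest. By mean FPKM, *Prtn3* ranked 396 of the 23116 genes in *Znf143 f/f* cells, whereas *Elane* ranked 14914. The log2 difference was 0.14 ± 0.30 (SE), close to the median of all genes, and turned to −0.18 without the second *Znf143 f/f* and to −0.07 without the first *Znf143 −/−* library. With at least 10326 fragments in each library, depth did not limit this comparison. The annotated exons of *Prtn3* share 159 of 1732 bases (9.18%) with *Plppr3* on the opposite strand, and since the library kit keeps no strand, reads of both genes in this stretch cannot be told apart.

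*Mpo* encodes myeloperoxidase, which makes hypochlorous acid from hydrogen peroxide and chloride. It was at 0.666, 2.19 and 0.670 FPKM in the *Znf143 f/f* libraries (88, 405 and 102 fragments) and at 1.28, 5.13 and 4.82 FPKM in the *Znf143 −/−* libraries (208, 849 and 799 fragments). The groups overlapped, because the second *Znf143 f/f* library lay above the first *Znf143 −/−* library. The ratio of the means was 3.19 and the log2 difference 1.57 ± 0.58 (SE), or 2.10 without the second *Znf143 f/f* and 2.20 without the first *Znf143 −/−* library. In the second *Znf143 f/f* library *Mpo* was at its highest of that genotype, whereas *Elane*, *Ctsg* and *Prtn3* were at their lowest, so the 4 genes did not vary together among *Znf143 f/f* mice. The exons of *Mpo* share 512 of 3424 bases (15.0%) with the antisense gene *Gm11505*, and again strand was not kept.

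**Figure D1:**
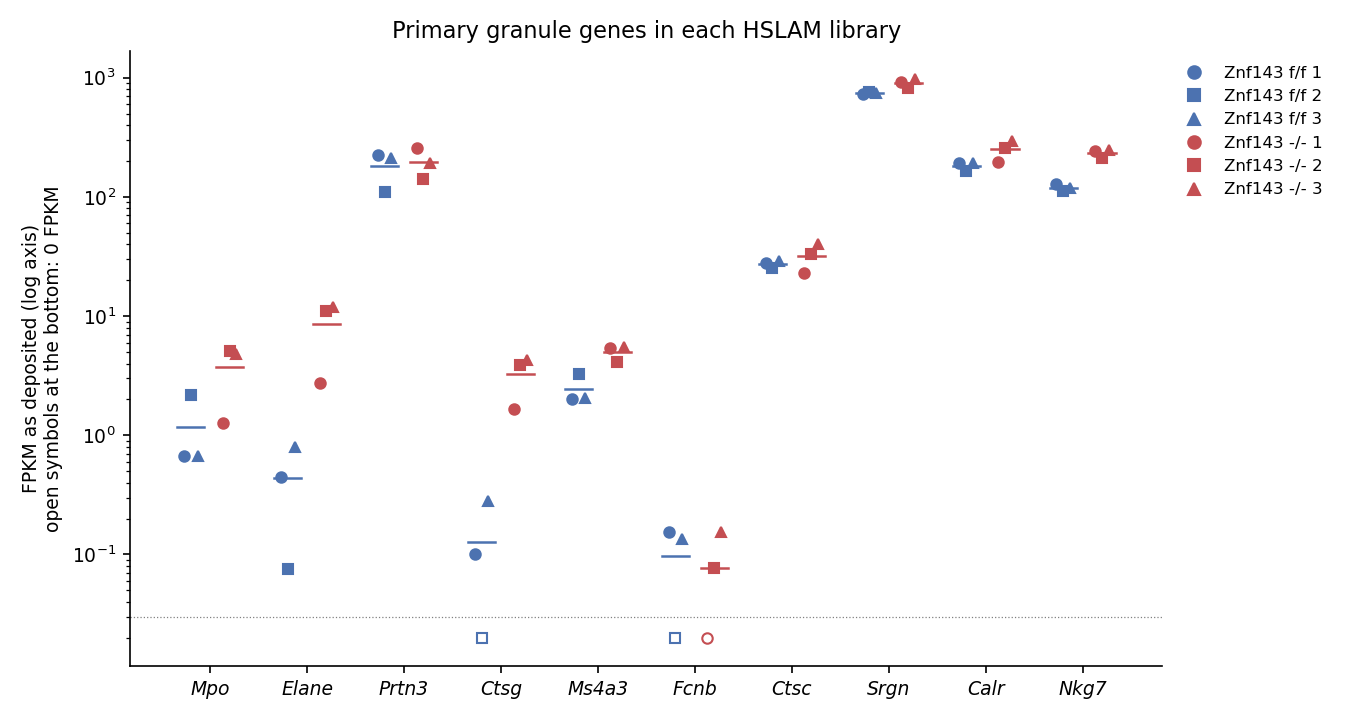
FPKM as deposited of the 10 primary granule genes in each HSLAM library, on a log axis. Blue symbols are the 3 *Znf143 f/f* and red symbols the 3 *Znf143 −/−* libraries, with the shape giving the replicate number and the bar the mean. Open symbols at the bottom are libraries with 0 FPKM. *Elane* and *Ctsg* are separated by genotype at low levels, *Prtn3* overlaps at 110 to 259 FPKM, and *Srgn* is the highest member.

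Set against *Prtn3* in the same library, which removes the scaling of the library, *Elane* was at 1.99, 0.682 and 3.80 FPKM per 1000 FPKM of *Prtn3* in the *Znf143 f/f* and at 10.6, 78.0 and 62.0 in the *Znf143 −/−* libraries. *Ctsg* was at 0.445, 0 and 1.35 per 1000 FPKM of *Prtn3* in the *Znf143 f/f* and at 6.36, 27.3 and 22.5 in the *Znf143 −/−* libraries. Both ratios separated the genotypes, with the first *Znf143 −/−* library nearest to the *Znf143 f/f* libraries. *Mpo* was at 2.96, 19.8 and 3.18 per 1000 FPKM of *Prtn3* in the *Znf143 f/f* and at 4.93, 36.0 and 25.3 in the *Znf143 −/−* libraries, where the second *Znf143 f/f* library again lay among the *Znf143 −/−* libraries. Of the summed FPKM of these 4 proteins, *Prtn3* made up 98.0% to 99.5% in *Znf143 f/f* and 87.6% to 97.9% in *Znf143 −/−* libraries. Hence the mRNA of the classic granule proteins in HSLAM cells of both genotypes was mainly that of *Prtn3*.

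**Figure D2:**
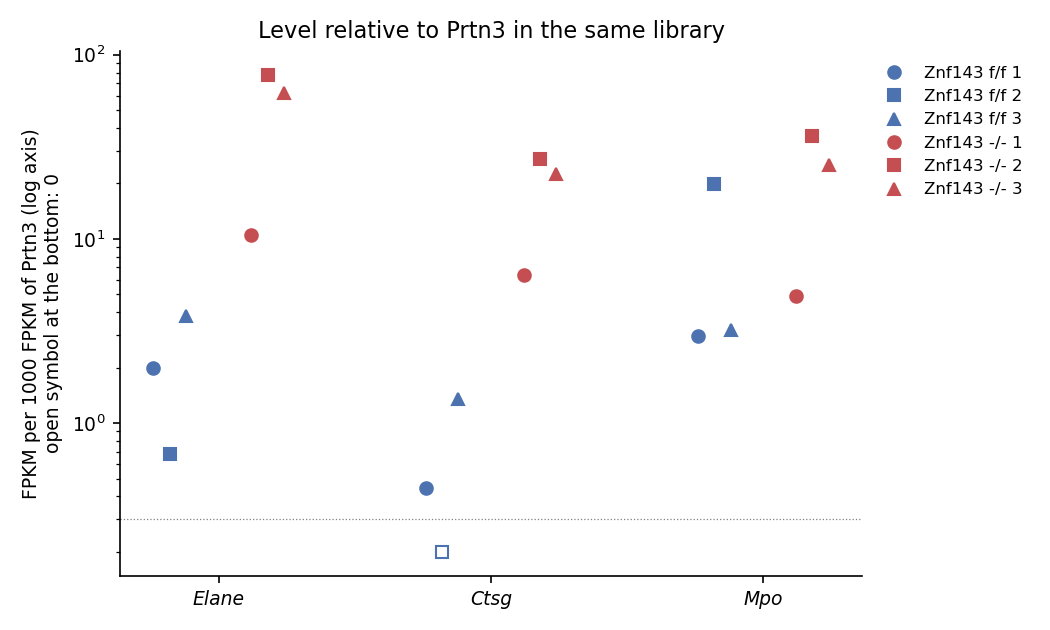
FPKM of *Elane*, *Ctsg* and *Mpo* per 1000 FPKM of *Prtn3* in the same library, on a log axis. Blue symbols are the 3 *Znf143 f/f* and red symbols the 3 *Znf143 −/−* libraries, and the open symbol at the bottom is a ratio of 0. For *Elane* the ratio is at most 3.80 in *Znf143 f/f* and at least 10.6 in *Znf143 −/−* libraries, whereas for *Mpo* the second *Znf143 f/f* library (19.8) lies above the first *Znf143 −/−* library (4.93).

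Among the genes that mature and pack these proteins, *Ctsc* encodes cathepsin C, which cuts the propeptide from elastase, proteinase 3 and cathepsin G. It was at 27.7, 25.4 and 28.7 FPKM in the *Znf143 f/f* and at 23.1, 32.9 and 39.9 FPKM in the *Znf143 −/−* libraries. The groups overlapped because the first *Znf143 −/−* library was the lowest of all 6, and the log2 difference was 0.20 ± 0.20 (SE). Thus mRNA of the activating protease was above that of *Elane* and *Ctsg* and below that of *Prtn3* in every library of both genotypes.

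*Srgn* encodes serglycin, the proteoglycan core protein to which granule proteins bind, and was the highest member in each library. It was at 726, 754 and 742 FPKM in the *Znf143 f/f* and at 925, 822 and 982 FPKM in the *Znf143 −/−* libraries, without overlap as deposited and with overlap after rescaling. Its log2 difference was 0.29 ± 0.14 as deposited and 0.18 ± 0.14 after rescaling (SE). *Srgn* is used by granules and secretory vesicles of many blood cells, platelets and mast cells included.

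*Calr* encodes calreticulin, a chaperone of the endoplasmic reticulum that binds the myeloperoxidase precursor. It was at 192, 166 and 191 FPKM in the *Znf143 f/f* and at 198, 259 and 294 FPKM in the *Znf143 −/−* libraries. The groups did not overlap, although the first *Znf143 −/−* library lay only just above the highest *Znf143 f/f* library. The log2 difference was 0.44 ± 0.17 as deposited and 0.32 ± 0.10 after rescaling (SE).

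The remaining members mark cells of the promyelocyte stage or the granule membrane. *Ms4a3* encodes a tetraspan membrane protein typical of granulocyte-monocyte progenitors. It was at 2.01, 3.26 and 2.07 FPKM in the *Znf143 f/f* and at 5.36, 4.08 and 5.47 FPKM in the *Znf143 −/−* libraries. The groups did not overlap, the ratio of the means was 2.04, and the log2 difference was 1.02 ± 0.24 (SE). Unlike *Elane*, *Ctsg* and *Mpo*, *Ms4a3* was not low in the first *Znf143 −/−* library.

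*Nkg7*, which encodes a membrane protein of cytotoxic granules that is also known from HSCs and progenitors, was among the higher members. It was at 129, 111 and 119 FPKM in the *Znf143 f/f* and at 243, 212 and 248 FPKM in the *Znf143 −/−* libraries. Every *Znf143 −/−* library was above every *Znf143 f/f* library, with means of 120 ± 9.20 and 234 ± 19.4 FPKM (SD, n = 3) and a log2 difference of 0.96 ± 0.14 (SE). This stayed between 0.91 and 1.04 when each library was left out in turn.

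*Fcnb* encodes ficolin B, a lectin secreted by bone marrow neutrophil precursors. It was at 0.155, 0 and 0.134 FPKM in the *Znf143 f/f* and at 0, 0.0772 and 0.154 FPKM in the *Znf143 −/−* libraries, which is at most 10 fragments in a library. The mean lay under the filter of 0.1 FPKM, so no log2 difference was fitted, and a difference was not detectable at this depth. *Fcnb* thus stayed near the limit of detection in the *Znf143 −/−* libraries in which *Elane* and *Ctsg* had 81 to 563 fragments.

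Over all 10 members, 6 were higher in every *Znf143 −/−* than in every *Znf143 f/f* library (*Elane*, *Ctsg*, *Ms4a3*, *Srgn*, *Calr* and *Nkg7*), 4 overlapped and 0 were lower in every one. Of all genes tested, 16.7% were higher in this way and 8.43% lower, 25.1% in either direction. The count was 6 when the third *Znf143 −/−* library was scaled to its own fragments and 5 after rescaling (15.4% of all genes). It was 7 without the second *Znf143 f/f* library (24% of all genes) and 8 without the first *Znf143 −/−* library (36.3% of all genes), so the background moved with it. Since the members were chosen on these values, nothing is read from the count. In bulk RNA, fewer or more cells that carry a transcript and less or more transcript per cell cannot be told apart.

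**Figure D3:**
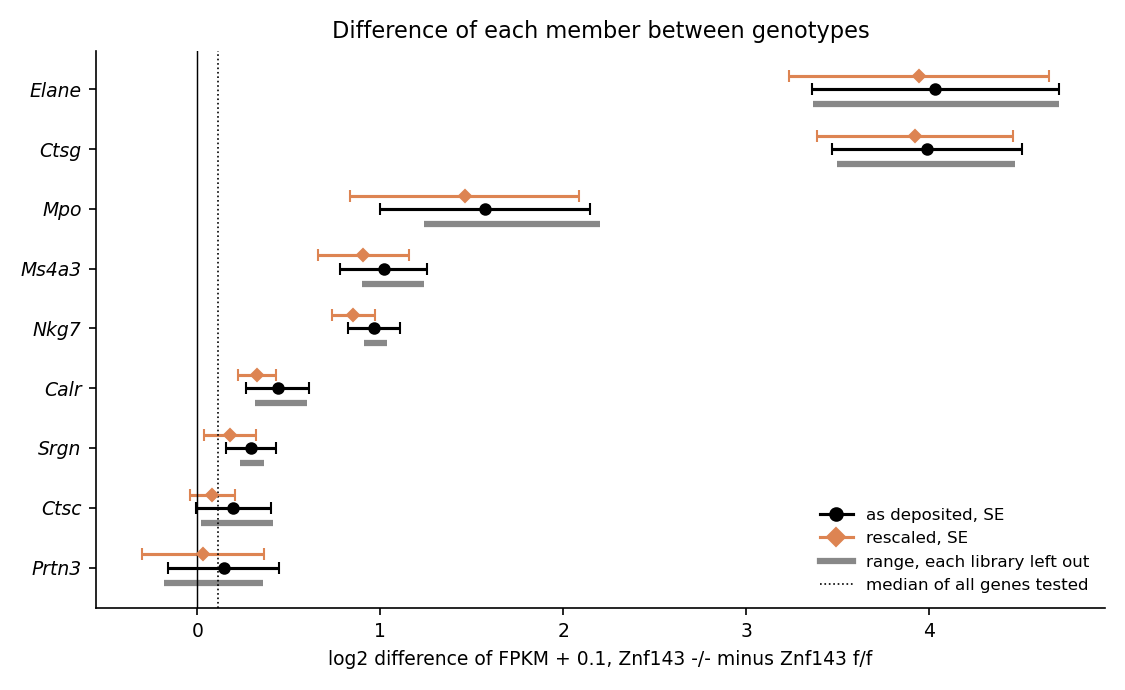
Log2 difference of FPKM + 0.1 (*Znf143 −/−* minus *Znf143 f/f*) of the 9 members that passed the filter, with black points as deposited and orange points after rescaling (bars, SE), and grey bars for the range when each library is left out in turn. The dotted line is the median of all genes tested (0.11). *Elane* and *Ctsg* lie near 4, *Mpo*, *Ms4a3* and *Nkg7* between 0.96 and 1.57 as deposited, and *Prtn3*, *Ctsc*, *Srgn* and *Calr* below 0.5.

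By mean FPKM, the order in *Znf143 f/f* cells was *Srgn* (741), *Calr* (183), *Prtn3* (182), *Nkg7* (120), *Ctsc* (27.3), *Ms4a3* (2.44), *Mpo* (1.17), *Elane* (0.441), *Ctsg* (0.128) and *Fcnb* (0.0964). The libraries of neighbours overlapped from *Calr* to *Nkg7* and from *Ms4a3* to *Fcnb*, so adjacent places within each stretch are not separated beyond the spread. Genes further apart were separated in part, since *Calr* lay above *Nkg7*, *Ms4a3* above *Elane*, *Ctsg* and *Fcnb*, and *Mpo* above *Ctsg* and *Fcnb* in all *Znf143 f/f* libraries. In *Znf143 −/−* cells, *Elane* moved from place 8 to 6, above *Ms4a3* and *Mpo*, and *Nkg7* passed *Prtn3*, but both again overlapped their neighbours. *Ctsg*, at 3.28 FPKM, did not overlap *Fcnb* in *Znf143 −/−* cells.

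The position of the members was compared with their difference through the protein-coding genes within 100 kb, of which 67 were found and 41 tested. *Prtn3* and *Elane* lie in tandem on chromosome 10, with 3073 bases between the end of *Prtn3* (GRCm38, 79874476 to 79883174) and the start of *Elane* (79886247 to 79888215), next to *Cfd*, which encodes complement factor D. *Cfd* was listed at 0 in all 3 *Znf143 f/f* and the first *Znf143 −/−* library and at 0.359 and 0.471 FPKM in the other *Znf143 −/−* libraries, the 2 libraries in which *Elane* was highest. *Plppr3* had a log2 difference of 0.66 ± 0.20 (limma adjusted p = 0.119) and *Prss57*, which encodes a further granule protease, of 0.41 ± 0.17 (adjusted p = 0.236). *Med16*, a Mediator subunit gene on the other side of *Cfd*, had −0.55 ± 0.25 (adjusted p = 0.264). Of the 12 non-member genes tested within 100 kb of *Prtn3* or *Elane*, 0 passed limma's test (0 with limma's voom on recovered fragments), and 4 had an unadjusted p under 0.05. Without the first *Znf143 −/−* library *Cfd* and *Plppr3* passed as higher.

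**Figure D4:**
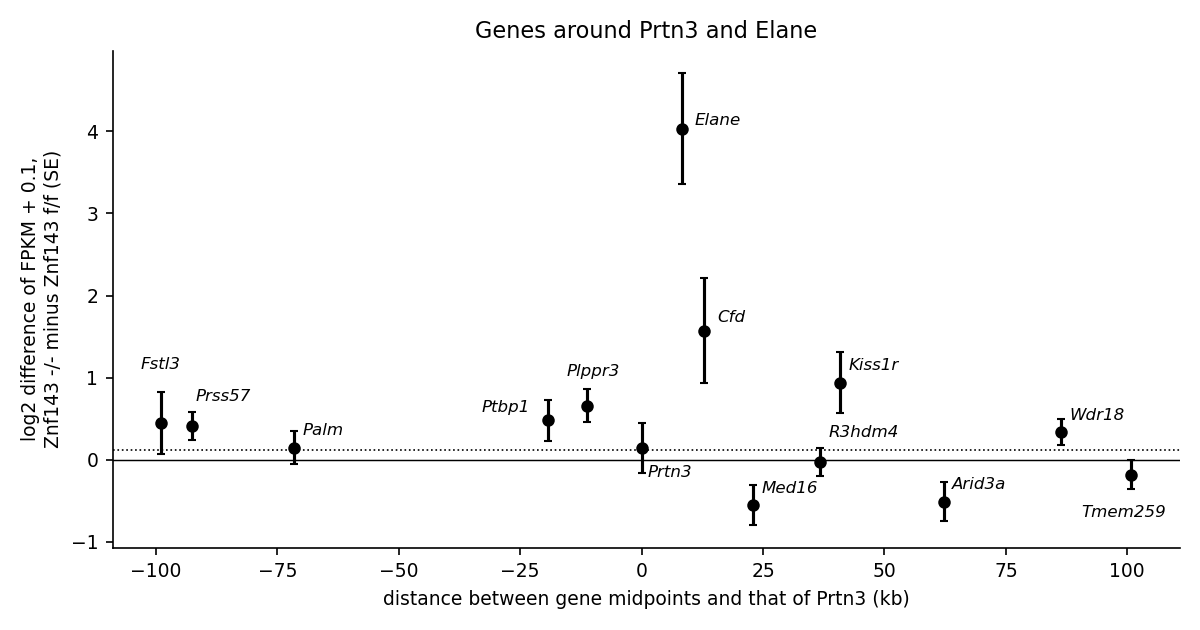
Log2 difference of FPKM + 0.1 (*Znf143 −/−* minus *Znf143 f/f*, bars SE) against the distance in kb between the midpoint of each tested gene and that of *Prtn3*. The dotted line is the median of all genes tested (0.11). *Elane* stands at 4.03 beside *Prtn3* at 0.14, and the value of *Cfd*, listed at 0 in 4 libraries, rests on the pseudocount.

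Of all 41 neighbours, 1 passed the test as deposited, against 4.32% of all genes. This was *Oosp2*, an oocyte-secreted protein gene near *Ms4a3*, which rose from 0, 0.0545 and 0 FPKM to 0.527, 0.396 and 0.335 FPKM (adjusted p = 0.0136). Its *Znf143 f/f* mean lay under 0.1 FPKM, so it passed the filter through the *Znf143 −/−* libraries. No neighbour passed without the second or without the third *Znf143 −/−* or without the third *Znf143 f/f* library. Without the first *Znf143 −/−* library 6 neighbours passed, and without the second *Znf143 f/f* library 4 did. After rescaling, which let 5.99% of all genes pass, *Dand5* and *Gadd45gip1* near *Calr* passed as well and were lower in *Znf143 −/−* cells. *Lim2*, *Cldnd2* and *Etfb* beside *Nkg7* had log2 differences of 1.33, 1.2 and 0.51, the same sign as *Nkg7* (adjusted p = 0.0504, 0.0562 and 0.08). *Mcpt8*, a basophil protease gene near *Ctsg*, was at 0.286, 0.389 and 0.631 FPKM in the *Znf143 f/f* and at 0, 5.63 and 6.73 FPKM in the *Znf143 −/−* libraries. Like *Ctsg* it was high in the second and the third *Znf143 −/−* library, but unlike *Ctsg* it was at 0 in the first.

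The pattern of *Mpo*, *Elane*, *Prtn3* and *Ctsg* over the 6 libraries (the mean of their centred log2 values) was compared with that of 3179 other genes with a mean of at least 1 FPKM and a log2 range of at least 1. The 10 most alike were *Pros1*, *Taf4b*, *P2ry1*, *4930439D14Rik*, *Zfp961*, *Il18rap*, *Serpina3g*, *Fkbp10*, *Rabl3* and *AC152827.1*, with Pearson coefficients from 0.991 to 0.994 over the 6 libraries. Since 3 libraries are of each genotype, a gene that is higher in *Znf143 −/−* cells shares part of the pattern for that reason. Since 217 genes were above 0.95, these 10 do not stand alone. *Pros1*, which encodes the anticoagulant protein S, was at 2.65, 2.04 and 2.68 FPKM in the *Znf143 f/f* and at 3.99, 5.35 and 6.09 FPKM in the *Znf143 −/−* libraries. *Serpina3g*, a protease inhibitor gene of hematopoietic progenitors, was at 300, 209 and 282 against 504, 738 and 827 FPKM. In both genes, as in *Elane*, the second *Znf143 f/f* library was the lowest and the first *Znf143 −/−* library was the lowest of the deleted ones. The pattern by which they were picked has the same order, so this order is not a further result. Of the 4 genes in the pattern, *Mpo* was highest of the *Znf143 f/f* libraries in the second. *Prtn3* was highest of the *Znf143 −/−* libraries in the first, so the pattern is not that of each of the 4.

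Of 11 other primary granule and promyelocyte genes, 10 were tested, 2 rose and 0 fell (limma adjusted p under 0.05), with a median log2 difference of 0.53. Of all genes, 2.74% passed as higher and 1.58% as lower. Without the filter, 11 were tested, 2 rose and the median was 0.41. All gene lists were chosen with earlier results of these data known, so their counts and medians are a description. *Plac8*, a small cysteine-rich protein of myeloid cells, rose from 88.2, 76.9 and 89.4 to 309, 175 and 234 FPKM (log2 difference 1.46 ± 0.21, adjusted p = 0.00622). *Cst7*, which encodes the inhibitor cystatin F, rose from 1.21, 2.21 and 1.23 to 5.35, 3.98 and 4.26 FPKM (1.53 ± 0.26, adjusted p = 0.0148). The others did not pass, among them *Mgst1* (0.64, adjusted p = 0.0859) and *Hp* (1.67, adjusted p = 0.217). Neither did *Lyz2*, lysozyme, at 516 to 559 against 400 to 501 FPKM (−0.27, adjusted p = 0.352), or *Clec12a* (−0.68, adjusted p = 0.343). Without overlap, 5 of the 10 were higher and 2 lower (*Lyz2* and *Clec12a*), against 16.7% and 8.43% of all genes. *Bpi*, a defining azurophil protein gene, was under the filter and listed at 0 in all *Znf143 −/−* libraries. Both calls were lost without the third *Znf143 −/−* library, and that of *Cst7* without the second.

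The list of secondary and tertiary granule genes also held the calprotectin genes *S100a8* and *S100a9* and the receptor genes *Cxcr2* and *Ltb4r1*. Of this wider list, 15 of 16 were in the table, 11 were tested, 6 rose and 0 fell, with a median log2 difference of 1.17. *S100a8* and *S100a9* were among the 6. Without the filter, 15 were tested, 5 rose (not *S100a9*) and the median was 0.73. *Camp*, the cathelicidin gene, rose from 1.03, 1.44 and 0.861 to 8.20, 5.81 and 6.98 FPKM (2.57 ± 0.24, adjusted p = 0.000786). *Lcn2*, the siderophore-binding lipocalin 2, rose from 0.188, 0.197 and 0.146 to 1.40, 1.94 and 2.14 FPKM (2.78 ± 0.26, adjusted p = 0.000896). In *Camp* the first *Znf143 −/−* library was the highest of its genotype, unlike in *Elane*.

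*Chil3*, a chitinase-like protein of neutrophils and macrophages, had the largest difference of this list (4.21 ± 0.30, adjusted p = 0.000301). It was at 0.0476, 0 and 0.0689 FPKM (3, 0 and 5 fragments) against 1.96, 2.76 and 2.58 FPKM (152, 218 and 204 fragments). The *Znf143 f/f* mean of *Chil3* lay under 0.1 FPKM, so it passed the filter through the *Znf143 −/−* libraries, and the size of its difference depends on the pseudocount. *Ngp* rose as well (1.84 ± 0.35, adjusted p = 0.0226). *S100a8* and *S100a9*, the subunits of calprotectin, had 1.51 (adjusted p = 0.0101) and 1.04 (adjusted p = 0.0415), but *S100a9* did not pass in 12 of 16 alternatives, among them rescaling (adjusted p = 0.108), voom and leaving out any library but the second *Znf143 f/f*. *Ltf*, the lactoferrin gene that defines secondary granules, was at 0.418 to 0.954 against 0.635 to 0.999 FPKM (0.09, adjusted p = 0.919). *Mmp8*, *Mmp9*, *Cd177* and *Cybb* were under the filter. *Camp*, *Lcn2* and *Chil3* passed whichever library was left out, and they were the 3 that passed without the third *Znf143 −/−* library.

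Of 11 tested inhibitors of granule proteases, 4 rose and 0 fell, with a median of 0.27. *Serpina3f* rose from 4.64, 1.98 and 4.30 to 13, 26.7 and 28.5 FPKM (2.62 ± 0.38, adjusted p = 0.00685), and *Serpina3g* by 1.37 (adjusted p = 0.0105). *Wfdc2*, a whey acidic protein family inhibitor gene, rose by 0.87 (adjusted p = 0.0227) and, together with *Cst7*, completes the 4. *Serpinb1a*, which inhibits elastase, cathepsin G and proteinase 3 in the neutrophil cytosol, was at 46.2 to 56.6 against 55.1 to 67.6 FPKM (0.27, adjusted p = 0.378). Closely related serpin genes share sequence, so reads may be divided unevenly among them, and the 4 calls were lost without the third *Znf143 −/−* library and all but *Wfdc2* without the second. That of *Wfdc2* was also lost after rescaling (adjusted p = 0.0551), without a variance trend and without the first or the third *Znf143 f/f* library, 6 of 16 alternatives in all.

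Among 28 genes of granule protein folding and sorting and of congenital neutropenia, 1 rose and 1 fell, with a median of 0.06, under that of all genes. *Gfi1*, a repressor needed for granulopoiesis and mutated in some neutropenias, rose from 3.26, 2.36 and 3.03 to 5.98, 7.94 and 9.72 FPKM (1.40 ± 0.23, adjusted p = 0.0108). *Lamtor2*, an endosomal scaffold gene whose loss also causes neutropenia, fell from 186, 173 and 171 to 68.5, 63.9 and 75.4 FPKM (−1.35 ± 0.14, adjusted p = 0.00113). The chaperones that work beside calreticulin did not pass, *Canx* at 0.05, *Hspa5* at 0.06 and *Hsp90b1* at −0.03 (adjusted p from 0.882 to 0.953). Neither did the neutropenia genes *Hax1* (0.07) and *G6pc3* (0.44). *Lamtor2* passed whichever library was left out, and *Gfi1* did not pass without the second or without the third *Znf143 −/−* library.

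None of 23 lysosomal hydrolases and membrane proteins that azurophil granules share passed the test as deposited, with a median of 0.28, and 2 passed after rescaling (*Man2b1* and *Fuca1*). The highest were *Ctsz* at 111 to 158 against 135 to 194 FPKM, *Ctsd* at 89.8 to 113 against 99.4 to 133 FPKM and *Lamp1* at 70.4 to 92.7 against 67.4 to 123 FPKM. At an unadjusted p under 0.05, 4 of the 23 were higher, and with limma's voom on recovered fragments 1 passed (*Fuca1*). *Man2b1* and *Fuca1* were among those that passed without the first *Znf143 −/−* library. These enzymes are made by most cells.

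Of 24 tested regulators of granulopoiesis, 3 rose and 0 fell, with a median of 0.29. Beside *Gfi1* these were *Flt3*, a cytokine receptor of multipotent progenitors, from 5.37, 4.52 and 5.11 to 14.9, 15.8 and 19.0 FPKM (1.71 ± 0.17, adjusted p = 0.00105), and *Csf1r*, the receptor of macrophage colony-stimulating factor, at no more than 0.0138 against 0.172 to 0.267 FPKM (adjusted p = 0.0434). *Cebpa*, which drives the step to granulocyte-monocyte progenitors, was at 1.77, 1.5 and 1.5 against 0.972, 0.886 and 1.2 FPKM (−0.60 ± 0.22), without overlap, with an adjusted p of 0.178 as deposited and 0.0462 after rescaling. *Cebpe*, needed for secondary granules, was low throughout (0.167 to 0.272 against 0.25 to 0.383 FPKM). *Spi1*, which encodes PU.1, was at 55.2 to 58.4 against 46.7 to 57.7 FPKM (−0.16, adjusted p = 0.582), and *Runx1* passed after rescaling alone (−0.31, adjusted p = 0.389 as deposited and 0.0399 rescaled). *Il3ra*, a chain of the interleukin-3 receptor, had 0.93 as deposited (adjusted p = 0.0512) and passed as higher after rescaling (adjusted p = 0.0308), so that 4 regulators were then higher and 2 lower. *Csf3r*, the receptor of granulocyte colony-stimulating factor, did not pass (0.33, adjusted p = 0.496). *Flt3* passed whichever library was left out, and it was the 1 regulator to pass without the second or without the third *Znf143 −/−* library. *Csf1r* also failed without the first or without the third *Znf143 f/f* library and with a pseudocount of 0.01 or 1. Its *Znf143 f/f* mean lay under 0.1 FPKM, so it passed the filter through the *Znf143 −/−* libraries.

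**Figure D5:**
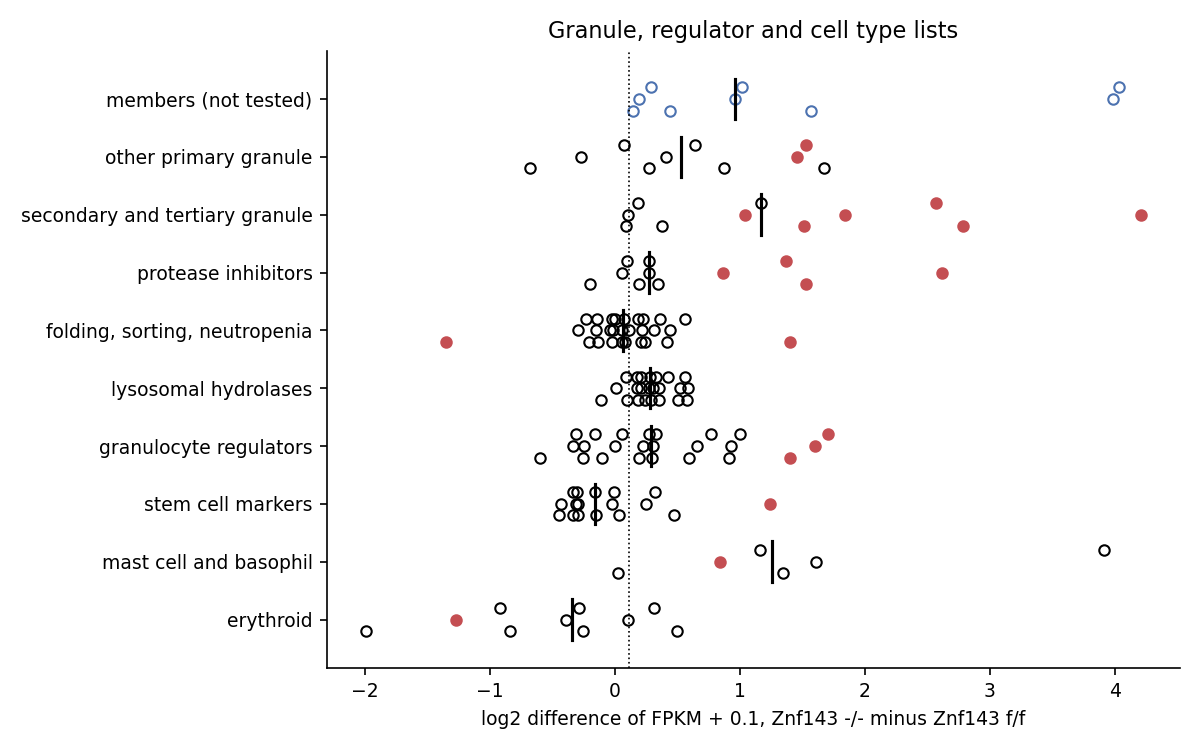
Log2 difference of FPKM + 0.1 (*Znf143 −/−* minus *Znf143 f/f*) of each tested gene in the granule, regulator and cell type lists. Blue circles are the members, which were not tested, red points are genes with a limma adjusted p under 0.05, open black circles are other genes, black bars are list medians and the dotted line is the median of all genes tested. The secondary and tertiary granule list has 6 of 11 genes in red, *S100a8* and *S100a9* among them, and the hydrolases have 0 of 23.

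Markers of the sorted population and of other cells in the marrow were read in the same libraries. These lists too were chosen with earlier results of these data known. Among the 17 HSC markers, 1 rose and 0 fell, with a median of −0.16. *Mecom*, a transcription factor gene of HSCs, had −0.43 as deposited (adjusted p = 0.182) and passed as lower after rescaling (−0.55, adjusted p = 0.0208), with the third *Znf143 −/−* library scaled to its own fragments and with voom. The one that rose was *Ly6a*, the gene of the gate marker Sca-1, from 287, 218 and 268 to 561, 596 and 664 FPKM (1.24 ± 0.16, adjusted p = 0.00379). *Cd48*, whose protein was gated out, rose from 9.65, 10.1 and 9.50 to 18.2, 20.8 and 23.8 FPKM (1.09 ± 0.16, adjusted p = 0.00685). It belongs to 8 tested markers of granulocyte-monocyte and other progenitors, of which 3 rose (*Cd48*, *Flt3* and *Fcgr2b*) and 0 fell. The summed level of that list was 115 to 127 FPKM in *Znf143 f/f* and 136 to 184 FPKM in *Znf143 −/−* libraries, and *Fcgr3* and *Il7r*, defining markers of granulocyte-monocyte and lymphoid progenitors, were at or near 0. The part of such cells in the levels of the granule genes was not tested.

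Of 12 mast cell and basophil markers, 7 had expression listed, 6 were tested and 1 passed (*Gata1*, which HSCs and erythroid progenitors also express). *Cma1*, *Tpsb2*, *Tpsab1*, *Mcpt4* and *Mrgprb2* had none listed. The summed level of the 7 was 22.3 to 26 FPKM in *Znf143 f/f* and 34.8 to 69.5 FPKM in *Znf143 −/−* libraries. *Gata1* alone was at 22.2, 19.2 and 21.0 FPKM in the *Znf143 f/f* and at 31.3, 38.0 and 43.7 FPKM in the *Znf143 −/−* libraries. It made up most of the sum in each library, so the sum mainly follows *Gata1*. *Prss34*, a basophil protease gene, was at 0, 0.654 and 0.0370 FPKM in the *Znf143 f/f* and at 0.173, 11.4 and 11.2 FPKM in the *Znf143 −/−* libraries. *Prss34* and *Mcpt8* were thus high in the second and the third *Znf143 −/−* library, those with the highest *Elane*, *Ctsg* and *Mpo*, and near 0 in the first, in which *Elane* and *Ctsg* were still above all *Znf143 f/f* libraries. Their part in the differences of the granule genes was not tested. Without the first *Znf143 −/−* library, 5 of the 6 passed and were higher (*Cpa3*, *Mcpt8*, *Prss34*, *Gata1* and *Gzmb*). *Gzmb* had a mean of 0 in *Znf143 f/f* cells, so it passed the filter through the *Znf143 −/−* libraries. *Ms4a2*, a chain of the high-affinity IgE receptor, was at most 0.0373 FPKM.

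Of 7 tested monocyte and macrophage markers 2 rose (*Csf1r* and *Ms4a6c*), with a median of 0.81, while *Cx3cr1*, *Ly86* and *Ms4a7* were at or near 0. Without overlap, 4 of the 7 were higher and 2 lower (*Cd14*, −0.76, and *F13a1*, −0.29), against 16.7% and 8.43% of all genes. The summed level of this list, 29.4 to 31.0 against 39.5 to 49.8 FPKM, was mostly *Cd68* and *Ms4a6c*. Without the filter, 10 were tested and the median was 0.43. *Adgre1* and *C1qa* had no expression listed. Of 5 tested natural killer and T cell markers 1 rose, the chemokine gene *Ccl5*, with a median of 0.93. Sums were 6.58 to 7.45 against 15.3 to 21.4 FPKM, and *Cd3e*, *Cd3g*, *Prf1* and *Eomes* were at or near 0. Without the filter, 12 were tested and the median was 0.64. *Ncr1*, *Gzma*, *Il2rb* and *Cd8a* had no expression listed. Of 9 megakaryocyte and platelet markers 1 rose (*Gp5*), with a median of 0.74 and sums of 505 to 640 against 719 to 965 FPKM, and 7 of the 9 were higher without overlap, against 16.7% of all genes. Of 10 erythroid markers 1 fell (*Hbb-bt*), with a median of −0.34 and sums of 1063 to 1220 against 802 to 1022 FPKM. These sums were mostly *Car2* (992 to 1012 against 735 to 942 FPKM), and the highest includes *Car1* at 129 FPKM in the second *Znf143 f/f* library. Without overlap, 4 of the 10 were lower and 2 higher (*Klf1* and *Epor*), against 8.43% and 16.7% of all genes. Neither of 2 tested eosinophil markers (*Prg2* and *Siglecf*) nor the 1 tested B cell marker (*Cd79b*) passed limma's test. With voom 0 passed, and 1 of the 3 had an unadjusted limma p under 0.05. The sums of these lists were 1.16 to 1.32 against 0.70 to 0.906 and 39.4 to 44.2 against 39.6 to 50.4 FPKM. The eosinophil markers *Epx*, *Ear1*, *Ear2*, *Ear6* and *Il5ra* and the B cell markers *Pax5* and *Ms4a1* had no expression listed. *Ly6a*, *Cd48* and *Ccl5* passed whichever library was left out, whereas *Csf1r*, *Ms4a6c*, *Gp5*, *Gata1* and *Hbb-bt* did not pass without the third *Znf143 −/−* library. All of these but *Ms4a6c* also failed without the second *Znf143 −/−* and without the third *Znf143 f/f* library, and *Csf1r*, *Gp5* and *Gata1* without the first *Znf143 f/f* library. Without the first *Znf143 −/−* library 3 megakaryocyte markers passed (*Ppbp*, *Gp5* and *Itgb3*) and 3 natural killer and T cell markers (*Klrb1c*, *Gzmb* and *Ccl5*). Without the second *Znf143 f/f* library *Gp5* did not pass, whereas *Ppbp*, *Selp*, *Cd3d* and *Car1* did. The part of these cells in the differences of the granule genes was not tested.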

How the data were processed

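HSLAM RNA-seq libraries of 3 *Znf143 f/f* and 3 *Znf143 −/−* mice were analysed, of 25 samples in the series. ChIP-seq and HiC samples were not analysed here. Libraries were assigned to genotypes by their titles. Per the study's methods the mice formed 3 pairs of littermates, a pairing that could not be modelled because the labels tie no library to a litter. Libraries were made with a SMART-Seq and Nextera XT kit, which keeps no strand, and sequenced as paired ends of 76 bp. Per the study's methods, TrimGalore, STAR (on GRCm38), FeatureCounts and DESeq2 were run by the authors.

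The authors deposited FPKM per gene and library, with gene length. Columns of their own comparison were deposited too, holding a mean signal, log2 changes and errors, a score and p-values, and were not used. Fragments were recovered from FPKM and length: 138677 of 138696 values were whole within 0.05, and 19 were not. A count of 3 fragments was taken as the limit that 0 allows, and limits cover counting error only, since PCR copies were not marked.

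Genes whose FPKM averaged 0.1 or more (19296) entered a two-sided limma 3.58.1 test under R 4.3.3, with log2(FPKM + 0.1) as the response, a variance trend in eBayes and Benjamini-Hochberg adjustment over all of them. Log2 differences on this scale understate changes of low genes. Each library is labelled as a separate sample, and p-values measure the spread between these 6 libraries. Figures and counts were made with Python 3.11.15, pandas 2.3.3, numpy 2.4.6 and matplotlib 3.10.9. Gene models came from GENCODE release M21, and promoters from RefSeq on GRCm38.p6.

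The members and all gene lists were chosen with earlier results of these data known. Named are all members, up to 4 genes per direction that passed the test in each list (the highest expressed where none passed), neighbours within 100 kb, the 10 genes most like *Mpo*, *Elane*, *Prtn3* and *Ctsg*, and *Zfp143*. Other genes were named after their values were seen. Alternatives were other pseudocounts (0.01 and 1) and filters (none, or 1 FPKM), rescaling, the third *Znf143 −/−* library scaled to its own fragments, limma's voom, no variance trend, a replicate block, and each library left out.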

Additional observations from a re-analysis of the deposited data

How the results depend on the processing

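The fitted log2 differences of *Elane* and *Ctsg* ranged from 2.56 to 4.71 and from 1.87 to 5.57 over all alternatives, the lowest with a pseudocount of 1, and stayed above 0. That of *Prtn3* changed sign in 2 of the fits that leave out a library. The median over the 9 fitted members, 0.96 as deposited, was 0.85 after rescaling, and *Zfp143* was called lower in all 16 alternatives. The 833 genes called between genotypes became 189 to 1518 when each library was left out, the 23 called genes of the lists 8 to 35, and the 1 called neighbour 0 to 6. The count of members above without overlap, recomputed after the data were seen, became 6 to 8 when each library was left out and 5 after rescaling. Rescaling moved the share of higher calls from 63.5% to 50.1% (578 of 1154), voom on fragments to 52.9%, and scaling the third *Znf143 −/−* library to its own fragments to 54.1%. Neighbours called were 3 with a pseudocount of 1, after rescaling and with that library's own scaling, and 4 with voom.

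Same-numbered libraries had deviations with correlations of −0.10, −0.09 and 0.03, and differently numbered ones with −0.04 to 0.11. With 3 libraries of each genotype, these values cannot decide whether libraries are paired. Which libraries share a litter is not given in the sources used here, so the replicate number was not taken as a pairing. With the replicate block, 864 genes and 3 neighbours were called. With the replicate block and rescaling, 191 genes, 7 genes of the lists and 0 neighbours were called. The cause of these moves was not tested. Depth limits *Fcnb*, and *Ctsg* and *Elane* in *Znf143 f/f* libraries.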
